A study of Mus musculus with 6 samples.

Results

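The genes described here are 34 genes of DNA replication and S phase, given as a fixed list of names, and all 34 are among the 13341 genes of the deposited table. RNA came from mouse hepatic stellate cells in culture, liver mesenchymal cells that store retinoids and turn into myofibroblasts on activation. Libraries with the genotype label Nbr1 knock-out (Nbr1KO, n = 3) were set against libraries with the label wild type (WT, n = 3). Both groups grew for 4 days in DMEM with 10% fetal bovine serum, glutamine and antibiotics, with no treatment, and the title of the series names NBR1, p62 and STING. The labels used here do not say how the deletion was made, whether the cells are a primary culture or a line, or the age, sex or strain of the animals. The series text calls the libraries biological replicates without saying whether they came from separate animals, so the p-values measure the spread between these libraries.

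Replication starts when the origin recognition complex, CDC6 and CDT1 load the MCM helicase onto DNA in G1, a step called licensing. In S phase the helicase is activated by CDC45 and GINS, primase and the polymerases copy the strands, and the PCNA clamp, loaded by replication factor C, holds the polymerase on DNA. RPA covers single strands, FEN1 and DNA ligase I join the lagging-strand fragments, and nucleotide enzymes supply the precursors. Many of these genes are switched on at the border of G1 and S by E2F transcription factors. This follows inactivation of the RB proteins by cyclin-dependent kinases, which include the partner of cyclin E. Stellate cells scarcely divide in healthy liver and divide when activated, as in culture.

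Several promoters show the sequence features of the list. The sequences come from RefSeq on GRCm38.p6 and run from 250 bases before to 50 bases after the start of transcription. The submitters' notes name another build, GRCm39, so none of these positions was joined to the counts. They were searched on both strands for 2 E2F site forms, TTTCCCGC and TTTGGCGC, for the CCAAT box, and for TTTGAA, the core of the cell cycle homology region found in genes of late cell cycle. Capitals mark the matches on either strand, and no match overlapped another. Cdc6 (chr11:98907901-98908200, plus strand), Orc1 (chr4:108579204-108579503, plus strand) and Rpa2 (chr4:132768110-132768409, plus strand) are shown because their levels had the smallest absolute log2 change between the groups. Mcm3 (chr1:20820263-20820562, minus strand) and Mcm5 (chr8:75109259-75109558, plus strand) carry E2F forms, and Ccnb2 (chr9:70421505-70421804, minus strand), a mitotic cyclin gene outside the list, carries TTTGAA. The last 3 were chosen after the search.
Cdc6: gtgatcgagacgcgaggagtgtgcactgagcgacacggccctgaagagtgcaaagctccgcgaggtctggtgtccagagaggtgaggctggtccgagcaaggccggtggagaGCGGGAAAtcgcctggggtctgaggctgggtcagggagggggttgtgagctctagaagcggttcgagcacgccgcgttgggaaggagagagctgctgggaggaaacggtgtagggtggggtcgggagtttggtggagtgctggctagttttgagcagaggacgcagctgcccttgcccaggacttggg
Orc1: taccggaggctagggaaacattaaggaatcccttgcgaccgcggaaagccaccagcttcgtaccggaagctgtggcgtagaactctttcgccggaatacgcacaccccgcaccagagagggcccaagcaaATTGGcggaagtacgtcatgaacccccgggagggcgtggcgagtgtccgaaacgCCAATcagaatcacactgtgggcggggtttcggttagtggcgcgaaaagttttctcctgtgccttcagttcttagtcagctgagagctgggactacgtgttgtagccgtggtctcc
Rpa2: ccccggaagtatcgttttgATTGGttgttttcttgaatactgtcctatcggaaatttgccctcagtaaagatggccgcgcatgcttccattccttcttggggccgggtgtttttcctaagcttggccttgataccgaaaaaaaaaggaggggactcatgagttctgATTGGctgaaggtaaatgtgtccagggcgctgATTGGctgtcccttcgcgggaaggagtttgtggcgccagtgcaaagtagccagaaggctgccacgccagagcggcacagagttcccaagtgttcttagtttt
Mcm3: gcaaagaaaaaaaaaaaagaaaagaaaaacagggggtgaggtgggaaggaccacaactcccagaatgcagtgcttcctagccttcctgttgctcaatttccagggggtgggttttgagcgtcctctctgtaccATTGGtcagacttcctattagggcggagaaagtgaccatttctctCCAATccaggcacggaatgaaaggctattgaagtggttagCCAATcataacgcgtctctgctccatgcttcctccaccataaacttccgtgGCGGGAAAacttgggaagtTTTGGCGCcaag
Mcm5: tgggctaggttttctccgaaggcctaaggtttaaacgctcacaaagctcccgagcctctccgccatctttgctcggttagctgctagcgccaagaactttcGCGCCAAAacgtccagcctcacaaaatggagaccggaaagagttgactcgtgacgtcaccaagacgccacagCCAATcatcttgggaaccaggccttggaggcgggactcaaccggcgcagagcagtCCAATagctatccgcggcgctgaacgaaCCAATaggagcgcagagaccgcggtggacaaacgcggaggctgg
Ccnb2: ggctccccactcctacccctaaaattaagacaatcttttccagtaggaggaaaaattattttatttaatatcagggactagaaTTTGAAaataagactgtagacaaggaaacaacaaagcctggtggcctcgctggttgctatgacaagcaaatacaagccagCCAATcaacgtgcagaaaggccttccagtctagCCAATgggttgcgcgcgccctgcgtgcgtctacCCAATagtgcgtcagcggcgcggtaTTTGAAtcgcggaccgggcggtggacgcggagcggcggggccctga

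Promoters of 28 of the 34 genes were matched by symbol. At least 1 E2F form stood in 9 of the 28 (Cdc6, Cdt1, Mcm3, Mcm5, Mcm6, Mcm7, Pclaf, Pola1 and Rfc3), or 32.1%, against 3.79% of the 8414 tested genes with a promoter and 1.56% of all 32851 promoters in the table. TTTGAA stood in 2 of the 28, Mcm2 and Fen1. That is 7.14%, against 14.2% of tested genes and 17.9% of all promoters. The CCAAT box stood in 18 of the 28 (64.3%), against 44.0% of tested genes and 37.4% of all promoters. In Mcm3 an E2F form lies 20 to 27 bases after the start and another 39 to 46 bases after it, and in Cdc6 the match lies from base -138 to base -131. A match is a run of letters, not a measured binding site.

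Recovered reads numbered 1648800 to 2276529 in the Nbr1KO libraries and 1508518 to 2383879 in the WT libraries. Nbr1 itself had 203.7, 188.2 and 175.6 normalized counts in Nbr1KO libraries 1 to 3 and 204.1, 278.0 and 288.7 in WT libraries 1 to 3 (log2 change -0.43, SE 0.18, adjusted p = 0.22). These 3′ end reads cannot check a deletion elsewhere in the gene. Sqstm1, which encodes p62, had 817.4, 644.6 and 859.1 normalized counts in Nbr1KO libraries and 24.0, 10.9 and 12.7 in WT libraries (log2 change 5.59, adjusted p = 0.000337). The labels give no alteration of Sqstm1 in either group. Whether the WT cells lack p62, or whether labels were exchanged, was not tested, so every Nbr1KO-over-WT value compares libraries with these labels and may not reflect Nbr1 alone. Of 16 stellate cell and myofibroblast markers 12 had a row in the table, while the defining markers Des, Lrat, Reln and Rgs5 had none. The 12 summed to 26664.2 to 29187.1 in Nbr1KO and 14576.9 to 14905.1 in WT libraries, with 7 higher and 0 lower in Nbr1KO (limma). Of all tested genes 4.67% were higher and 2.25% lower. Of 8 macrophage markers 3 had a row and summed to 16.6 to 27.5 in Nbr1KO and 12.6 to 14.7 in WT libraries, and of 7 endothelial markers 1 had a row, at 6.0 to 8.3 and 3.4 to 5.4. None of 6 lymphocyte and neutrophil markers had a row. All 5 mesothelial markers had one, at sums of 1134.2 to 1315.8 in Nbr1KO and 1579.6 to 1753.2 in WT libraries. Of the 5, 0 were higher and 1 was lower in Nbr1KO, and their part in the results was not tested. Of 6 cholangiocyte markers 4 had a row (sums 512.4 to 537.5, mostly Sox9, in Nbr1KO and 73.1 to 78.1, mostly Krt19, in WT libraries), and of 8 hepatocyte markers 6 had one (386.8 to 435.5 and 130.7 to 147.1, mostly Trf). In the cholangiocyte list and in the hepatocyte list 2 genes each were tested, with 1 higher and 0 lower in Nbr1KO.

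The libraries also stood apart in a way the labels do not give. Across all 10540 tested genes WT library 1 correlated at 0.857 and 0.856 with WT libraries 2 and 3, and at 0.875 and 0.888 with Nbr1KO libraries 1 and 3. Nbr1KO library 2 correlated at 0.946 and 0.924 with Nbr1KO libraries 1 and 3, and at 0.901 and 0.903 with WT libraries 2 and 3. Over the 34 genes it correlated at 0.919 and 0.881 with Nbr1KO libraries 1 and 3, and at 0.937 and 0.955 with WT libraries 2 and 3. WT library 1 stood apart over the 34 genes too, with r = 0.929 and 0.950 between WT library 1 and Nbr1KO libraries 1 and 3, against 0.755 and 0.771 between WT library 1 and the other WT libraries. Below, WT library 1 with Nbr1KO libraries 1 and 3 is called the first library set, and WT libraries 2 and 3 with Nbr1KO library 2 the second. The sets were found by clustering these data, and nothing in the labels says what they are. They are uneven over the groups, with most Nbr1KO libraries in the first set and most WT libraries in the second. A log2 change fitted without a set term therefore holds part of the difference between the sets.

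None of the 34 genes passed the test between the groups. With limma on log2(value + 1) and adjustment over all 10540 tested genes, 0 genes of the list passed an adjusted p of 0.05 in either direction, while 6.92% of all tested genes passed, 4.67% higher and 2.25% lower in Nbr1KO. edgeR on the recovered reads also called 0 of the 34, and DESeq2 called 1. At an unadjusted p under 0.05 there were 4 of 34 (11.8%), against 22.6% of all tested genes, and all 4, Rpa1, Rfc4, Rrm2 and Mcm5, had a positive log2 change. Across the list, 23 genes had a positive and 11 a negative log2 change, with a median of 0.14, against -0.01 over all tested genes. For 6 of 34 genes (17.6%) the Nbr1KO and WT values did not overlap, against 30.1% of all tested genes. The summed level of the 34 genes was 13167.3, 12452.6 and 13528.4 normalized counts in Nbr1KO libraries 1 to 3 and 13639.0, 12490.4 and 12042.9 in WT libraries 1 to 3, or 13049.5 ± 547.5 against 12724.1 ± 823.3 (SD, n = 3 each). As a share of each library this was 0.636% to 0.691% in Nbr1KO and 0.609% to 0.678% in WT libraries. In bulk RNA a change in the number of cells in S phase and a change in RNA per cell cannot be told apart.

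**Figure D1:**
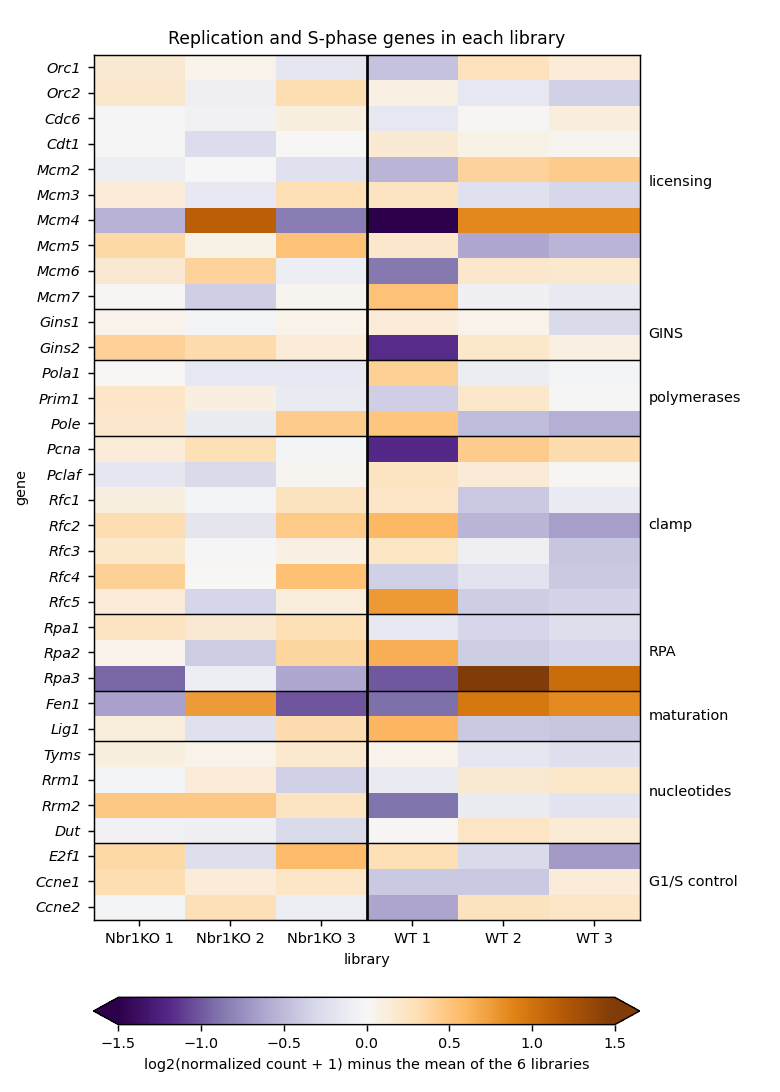
Level of each of the 34 genes in each library, as log2(normalized count + 1) minus the gene's mean over the 6 libraries, in rows grouped by role, with Nbr1KO libraries on the left and WT libraries on the right. Mcm4, Rpa3 and Fen1 vary most, and WT library 1 resembles Nbr1KO libraries 1 and 3 for many genes.

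The 95% interval of the log2 change from limma had a median half-width of 0.56 over the 34 genes, from 0.28 for Rpa1 to 1.84 for Mcm4. For 21 genes the interval lay within 1 log2 unit, or 2-fold, of no change on both sides. For the other 13 it reached beyond 2-fold in at least 1 direction, so a change of that size lay inside the interval. Reads per gene of the list ran between 17 and 1830 in a library.

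**Figure D2:**
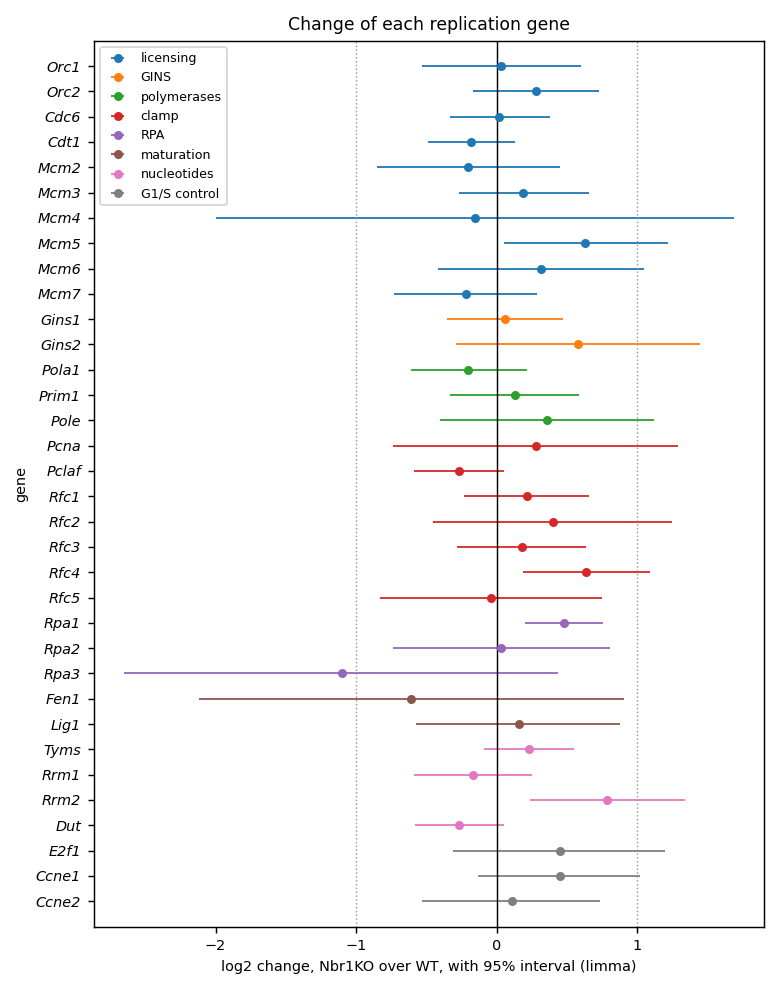
Log2 change of each of the 34 genes, Nbr1KO over WT, with its 95% interval from limma, coloured by role, with dotted lines at 2-fold. Intervals are narrow for Rpa1, Cdt1 and Tyms and widest for Mcm4, Rpa3 and Fen1, and 4 of the 34 lie off 0 before adjustment.

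Among the 10 licensing genes 0 passed the test, 6 log2 changes were positive and 4 negative, and their median was 0.03. Cdc6, whose product helps load the helicase, had 138.5, 135.8 and 150.7 normalized counts in Nbr1KO libraries 1 to 3 and 125.4, 141.9 and 151.6 in WT libraries 1 to 3 (log2 change 0.02, 95% interval -0.33 to 0.38). Orc1, the largest subunit of the origin recognition complex, had 84.2, 78.2 and 66.4 in Nbr1KO and 54.7, 89.9 and 82.6 in WT libraries (log2 change 0.03, interval -0.53 to 0.60). For both genes the groups overlapped throughout. Orc2, another subunit of that complex, had 148.5, 122.9 and 161.4 in Nbr1KO and 138.8, 116.7 and 101.7 in WT libraries (log2 change 0.28, SE 0.19, adjusted p = 0.455). Cdt1, the loading partner of CDC6 that geminin blocks after licensing, was at 486.1, 410.8 and 493.6 in Nbr1KO and 549.7, 519.8 and 500.3 in WT libraries. Its groups did not overlap, but a log2 change of -0.18 (SE 0.13) missed the threshold (adjusted p = 0.492).

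The 6 MCM genes, which encode the subunits of the replicative helicase, gave a nearly flat sum from subunits that shifted against each other. Their summed level was 3668.9, 3734.3 and 3710.5 normalized counts in Nbr1KO libraries 1 to 3 and 3638.2, 3559.9 and 3518.3 in WT libraries 1 to 3. Every Nbr1KO sum lay above every WT sum, by a small margin that was not tested. Mcm4 had 210.9, 682.4 and 172.1 in Nbr1KO and 108.1, 561.0 and 562.0 in WT libraries. Thus Mcm4 was low in the 3 libraries of the first set and high in the 3 of the second, whatever the genotype label. Its log2 change was -0.15 (SE 0.78, adjusted p = 0.937), while within the first set it was 0.81 and within the second 0.28. Its share of the MCM sum was 5.7%, 18.3% and 4.6% in Nbr1KO and 3.0%, 15.8% and 16.0% in WT libraries. Mcm4 is described for this split, which was chosen after its values were seen.

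Other subunits split the opposite way. Mcm7 had 1070.0, 817.3 and 1077.4 in Nbr1KO and 1519.6, 1006.9 and 966.0 in WT libraries (log2 change -0.22, adjusted p = 0.629), and Mcm3 789.4, 650.6 and 881.6 against 847.2, 616.4 and 578.4 (log2 change 0.19, adjusted p = 0.632). Each was higher in the first library set than in the second within its own group. Mcm5 had 741.4, 614.5 and 835.4 in Nbr1KO libraries and 665.7, 378.8 and 403.1 in WT libraries. Its mean was 1.51-fold that of WT (730.4 ± 110.8 against 482.5 ± 159.1, log2 change 0.63, SE 0.25, adjusted p = 0.187), with WT library 1 inside the Nbr1KO range. Without WT library 1, Mcm5 passed (log2 change 0.89, adjusted p = 0.0083). In that fit, which is used for other single genes below as well, 21.1% of all tested genes passed. It leaves only second-set libraries in WT, so its log2 changes hold a larger part of the set difference. Mcm6 had 535.9, 629.1 and 449.7 in Nbr1KO and 262.8, 548.4 and 543.9 in WT libraries (log2 change 0.32, adjusted p = 0.622), and its low value was WT library 1. Mcm2 had 321.4, 340.3 and 294.3 in Nbr1KO and 234.8, 448.5 and 464.9 in WT libraries (log2 change -0.20, adjusted p = 0.733). Mcm2 passed, as lower in Nbr1KO, without WT library 1 (log2 change -0.52, adjusted p = 0.0238), the library in which it was lowest. With a term for the library sets Mcm2 did not pass (log2 change -0.02, adjusted p = 0.951). The ratio of Mcm4 to Mcm5 ran at 0.284, 1.11 and 0.206 in Nbr1KO and 0.162, 1.48 and 1.39 in WT libraries.

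**Figure D3:**
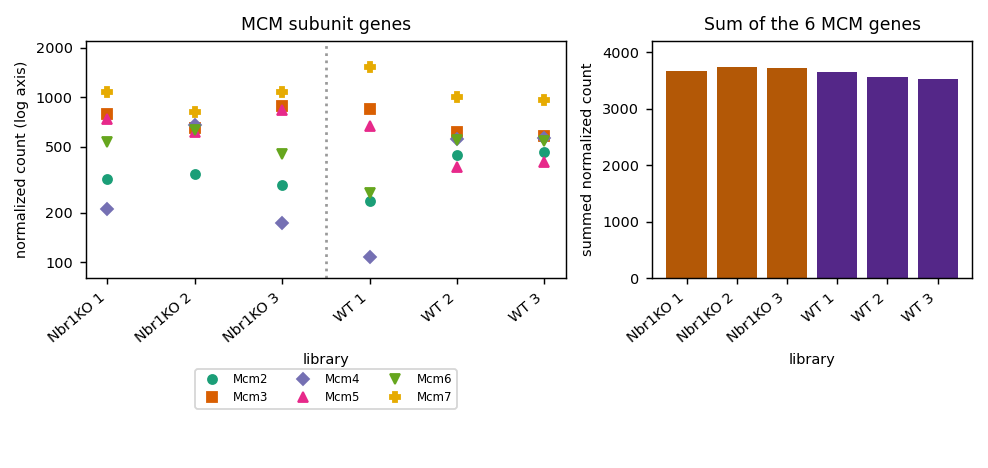
Normalized counts of the 6 MCM genes in each library on a log axis (left) and their sum (right), Nbr1KO libraries before WT libraries. Mcm4 ranges from 108.1 to 682.4 while the sum of the 6 genes stays between 3518.3 and 3734.3.

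GINS subunit genes, needed to activate the loaded helicase, did not pass. Gins2 had 305.1, 289.6 and 252.7 in Nbr1KO and 101.4, 266.2 and 245.1 in WT libraries (log2 change 0.58, SE 0.37, adjusted p = 0.416). WT library 1 alone was far below the others, and without it the log2 change was 0.14. Gins1 was at 117.7, 110.0 and 118.7 in Nbr1KO and 124.1, 118.4 and 92.6 in WT libraries (log2 change 0.06, interval -0.35 to 0.47). Of the polymerase genes, Pola1, the catalytic subunit of the polymerase that starts each fragment, had 321.4, 289.6 and 289.5 in Nbr1KO and 429.6, 300.7 and 314.1 in WT libraries (log2 change -0.20, adjusted p = 0.579). Prim1, the small primase subunit, had 220.0, 203.7 and 174.4 in Nbr1KO and 146.8, 217.5 and 187.0 in WT libraries (log2 change 0.13, adjusted p = 0.761). In both genes the value that stood apart was WT library 1. Pole, the catalytic subunit of the leading-strand polymerase, had 153.0, 123.8 and 182.7 in Nbr1KO and 189.4, 94.9 and 89.9 in WT libraries (log2 change 0.36, adjusted p = 0.578). Pole passed without WT library 1 (log2 change 0.71, adjusted p = 0.0409), but not with a term for the library sets (log2 change 0.12, adjusted p = 0.626).

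Of 7 genes for the sliding clamp, its loader and a clamp-bound factor 0 passed, with a median log2 change of 0.22. Pcna, the clamp itself, had 304.2, 341.2 and 270.5 in Nbr1KO and 120.1, 377.9 and 346.8 in WT libraries (log2 change 0.28, SE 0.43, adjusted p = 0.77). WT library 1 was the low value, and the log2 change was -0.25 without it. Pclaf, a small PCNA-binding protein gene, had 1235.6, 1137.9 and 1427.5 in Nbr1KO and 1634.3, 1536.8 and 1399.1 in WT libraries (log2 change -0.27, SE 0.13, adjusted p = 0.305). Its groups overlapped only through Nbr1KO library 3 and WT library 3. Rfc1, the large subunit of the clamp loader, had 573.0, 520.8 and 637.2 in Nbr1KO and 617.7, 401.4 and 487.6 in WT libraries (log2 change 0.22, adjusted p = 0.566). The gene annotation used here lists pseudogene copies of Pcna and Tyms, and the sources do not say how shared reads were assigned.

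The clamp loader subunit gene Rfc4 lay higher in every Nbr1KO library, at 161.1, 120.3 and 174.4, than in any WT library, at 93.4, 104.1 and 90.8. Its mean was 1.58-fold that of WT (152.0 ± 28.2 against 96.1 ± 7.1, log2 change 0.64, SE 0.19), with an unadjusted p of 0.0125 in limma that did not hold after adjustment (adjusted p = 0.104). The other small subunits did not follow it. Rfc2 had 294.2, 209.7 and 327.5 in Nbr1KO and 357.6, 163.8 and 149.8 in WT libraries (log2 change 0.40), and Rfc5 had 289.7, 210.6 and 287.2 against 450.9, 202.4 and 208.8 (log2 change -0.04). Both had their highest value in WT library 1. Rfc2 passed without that library (log2 change 0.79, adjusted p = 0.0338) and Rfc5 did not. With a term for the library sets Rfc2 did not pass (log2 change 0.11, adjusted p = 0.633), and within the first set its log2 change was -0.20. Rfc3 had 274.3, 235.5 and 252.7 in Nbr1KO and 280.2, 225.9 and 177.0 in WT libraries (log2 change 0.18, adjusted p = 0.661).

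Rpa1, the large subunit of the single-strand DNA binding complex, came closest to the threshold. It had 755.0, 718.5 and 785.5 normalized counts in Nbr1KO and 572.4, 508.1 and 538.4 in WT libraries, so the groups were well apart. The mean was 1.40-fold that of WT (753.0 ± 33.6 against 539.6 ± 32.2), with a log2 change of 0.48 (SE 0.12, adjusted p = 0.0606). Rpa1 passed in 4 of 17 alternatives. These were DESeq2 (adjusted p = 0.0401, where 9.02% of tested genes passed) and quantile normalization (adjusted p = 0.0439, 6.65% of genes). The others were the fit without WT library 1 (adjusted p = 0.0152, 21.1% of genes) and a term for the library sets (adjusted p = 0.00846, 26.5% of genes). Over all 17 its adjusted p ran from 0.00846 to 0.266. Its log2 change was 0.43 within the first library set and 0.46 within the second.

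The partners of Rpa1 in the same complex behaved differently. Rpa2 had 502.4, 372.1 and 630.1 in Nbr1KO and 763.1, 372.0 and 386.8 in WT libraries (log2 change 0.03, interval -0.74 to 0.81). Rpa3, the smallest subunit, had 49.8, 91.1 and 62.9 in Nbr1KO and 48.0, 296.5 and 201.6 in WT libraries. Its log2 change of -1.10 was the most negative of the list (SE 0.65, adjusted p = 0.388), and WT library 1 lay below every Nbr1KO library. Without WT library 1, Rpa3 passed as lower in Nbr1KO (log2 change -1.88, adjusted p = 0.00609), but not with a term for the library sets (log2 change -0.60, adjusted p = 0.202). Within the first library set its log2 change was 0.22 and within the second -1.41. Rpa2 was high where Rpa3 was low, and the ratio of Rpa3 to Rpa2 was 0.0991, 0.245 and 0.0998 in Nbr1KO and 0.0629, 0.797 and 0.521 in WT libraries.

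The genes that finish the lagging strand split between the library sets in opposite ways. Fen1, the flap nuclease, had 68.8, 183.9 and 53.4 in Nbr1KO and 57.4, 213.3 and 197.0 in WT libraries (log2 change -0.61, SE 0.64, adjusted p = 0.648). Lig1, the replicative DNA ligase, had 1035.6, 817.3 and 1190.2 in Nbr1KO and 1442.2, 717.2 and 702.7 in WT libraries (log2 change 0.16, SE 0.31, adjusted p = 0.822). Fen1 was low and Lig1 high in each library of the first set.

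Of 4 nucleotide supply genes 0 passed. The groups did not overlap for 3 of them, where 30.1% of all tested genes had such groups. Rrm2, the S-phase subunit of ribonucleotide reductase, had 301.4, 303.4 and 256.3 in Nbr1KO and 117.4, 200.7 and 190.7 in WT libraries. Its mean was 1.69-fold that of WT (287.0 ± 26.6 against 169.6 ± 45.5, log2 change 0.79, SE 0.23, adjusted p = 0.1), the largest positive log2 change of the list. Rrm2 passed without WT library 1 (log2 change 0.55, adjusted p = 0.0303). The partner subunit Rrm1 had 369.3, 415.1 and 295.5 in Nbr1KO and 348.2, 427.5 and 436.7 in WT libraries (log2 change -0.17, adjusted p = 0.638), with overlapping groups. Tyms, the thymidylate synthase gene, had 389.2, 378.2 and 410.6 in Nbr1KO and 374.9, 322.5 and 308.7 in WT libraries (log2 change 0.23, adjusted p = 0.379). Dut, whose product removes dUTP, had 515.1, 510.5 and 439.0 in Nbr1KO and 540.3, 627.3 and 592.0 in WT libraries (log2 change -0.27, adjusted p = 0.302). Tyms thus lay higher and Dut lower in all 3 Nbr1KO libraries, and neither passed.

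The 3 G1/S control genes had positive log2 changes, and 0 passed. E2f1, which activates many genes of this list, had 181.0, 120.3 and 211.2 in Nbr1KO and 176.1, 116.7 and 88.1 in WT libraries (log2 change 0.45, SE 0.32, adjusted p = 0.476). Ccne1, a cyclin E gene, had 38.0, 33.5 and 35.6 in Nbr1KO and 22.7, 22.7 and 33.6 in WT libraries (log2 change 0.45, SE 0.24, adjusted p = 0.34), where WT library 3 just reached the Nbr1KO range. Ccne2, the other cyclin E gene, had 186.5, 233.8 and 180.4 in Nbr1KO and 124.1, 227.6 and 223.4 in WT libraries (log2 change 0.11, adjusted p = 0.866).

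Differences between the library sets exceeded those between the genotype labels for most of these genes. The sets were picked by clustering these same data, so large set differences follow in part from how they were picked. The group difference also holds part of the set difference, since the sets are uneven over the groups. The set difference, the mean within both groups of first minus second set on the log2 scale, had a median size of 0.43 over the 34 genes, against 0.22 for the group difference. It was the larger of the pair for 26 of 34 genes (76.5%) and for 58.1% of all tested genes. It was positive for 19 genes and negative for 15, from -2.10 for Mcm4, -1.70 for Fen1 and -1.51 for Rpa3 to 0.80 for Rpa2 and 0.87 for Rfc2. WT library 1 held the highest value of the 6 libraries for 11 of the 34 genes and the lowest for another 11, each 32.4%, against 28.9% and 29.4% of all tested genes. Within the sets, the sign of the group difference was the same in both for 20 of 34 genes (58.8%), against 68.4% of all tested genes.

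The set difference moved with the base composition of the transcript end. Over the 34 genes it correlated at r = 0.65 with the GC content of the last 300 bases of the longest coding transcript in the GENCODE annotation, and over the 9929 tested genes with a transcript at r = 0.35. With log2 transcript length the values were 0.23 and 0.00. These correlations are across genes that share the same 6 libraries and are given as a description. GC content was 23.3% for Mcm4, 29.3% for Rpa3 and 32.0% for Pcna, which were low in the first set, and 49.7% for Lig1 and 52.7% for E2f1, which were high in it. Mcm6, at 44.0%, was also lower in the first set within each group. Gins2, at 48.0%, had a set difference of -0.69 that came from WT library 1, while Nbr1KO library 1 held its highest value. The log2 change between genotype labels correlated with transcript-end GC at 0.35 over the 34 genes and 0.11 over all. The part of base composition in the results was not tested.

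**Figure D4:**
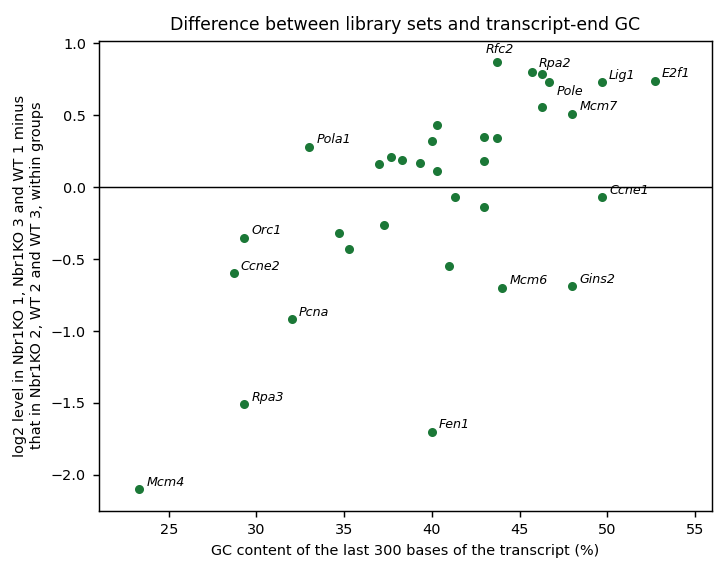
For each of the 34 genes, the log2 difference between the first library set (Nbr1KO 1, Nbr1KO 3, WT 1) and the second (Nbr1KO 2, WT 2, WT 3), averaged within the groups, against the GC content of the last 300 bases of its transcript. The difference runs from -2.10 at 23.3% GC (Mcm4) to values near 0.8 above 43% GC, with Fen1, Gins2 and Mcm6 below others at their GC content.

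With WT library 1 left out, or with a term for the sets, more genes of the list passed, at a share close to that of all genes. Leaving out WT library 1 does not adjust for the sets. WT then holds only second-set libraries, so the log2 changes hold a larger part of the set difference. Without WT library 1, 7 of 34 (20.6%) passed, against 21.1% of all tested genes. Mcm5, Pole, Rfc2, Rpa1 and Rrm2 were higher, and Mcm2 and Rpa3 lower, in Nbr1KO. With a term for the library sets, 9 of 34 (26.5%) passed, against 26.5% of all. Gins2, Mcm4, Mcm5, Mcm6, Rfc4, Rpa1 and Rrm2 were then higher, and Mcm7 and Pclaf lower, in Nbr1KO. Mcm2, Pole, Rfc2 and Rpa3, called without WT library 1, did not pass with the term (log2 changes -0.02, 0.12, 0.11 and -0.60). Mcm5, Rpa1 and Rrm2 passed in both fits, with log2 changes of 0.89, 0.52 and 0.55 without WT library 1 and 0.45, 0.44 and 0.93 with the term. The share of all tested genes that passed in both was not counted, so this overlap has no background to be read against. Both fits also rest on the same libraries. The sets were drawn from the same data, so the second fit is not independent of the values it tests.

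Of 162 tested genes in 7 related lists 1 was higher and 9 were lower in Nbr1KO. Together these are 6.17%, near the 6.92% of all tested genes. Of 20 other licensing and origin firing genes 0 were higher and 1 was lower, with a median log2 change of -0.07. It was Rif1, a regulator of origin timing, at 467.1, 481.3 and 487.7 in Nbr1KO and 861.9, 754.1 and 844.4 in WT libraries (log2 change -0.77, SE 0.12, adjusted p = 0.0121). Of 24 other polymerase, fork and lagging-strand genes 0 were higher and 1 was lower, Supt16, a subunit of the FACT histone chaperone, at 135.8, 163.3 and 125.8 against 272.2, 230.1 and 267.8 (log2 change -0.86, SE 0.16, adjusted p = 0.0261). Neither gene had overlapping groups. Of 22 other nucleotide supply genes 0 were higher and 2 lower. Shmt1, the cytosolic serine hydroxymethyltransferase gene that feeds folate units to thymidylate synthesis, had 44.4, 53.3 and 60.5 in Nbr1KO and 124.1, 122.6 and 125.3 in WT libraries (log2 change -1.23, SE 0.18, adjusted p = 0.0107). Gmps, the GMP synthetase gene, had 121.3, 121.2 and 131.7 in Nbr1KO and 213.5, 225.9 and 207.9 in WT libraries (log2 change -0.79, SE 0.14, adjusted p = 0.0186).

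Of 28 E2F-RB and G1 control genes 1 was higher and 0 lower. Cdkn1c, an inhibitor of G1 and S-phase cyclin-dependent kinases, had 32.6, 24.1 and 26.1 in Nbr1KO and 9.3, 9.2 and 7.3 in WT libraries, a 3.20-fold mean (27.6 ± 4.5 against 8.6 ± 1.2, log2 change 1.57, SE 0.27, adjusted p = 0.0176). Its WT values all lay below the filter value of 10, so Cdkn1c was tested only through its Nbr1KO values. Of 16 replication-coupled chromatin genes 0 passed in either direction, and the smallest p belonged to Chaf1b, a chromatin assembly factor gene (log2 change 0.55, adjusted p = 0.275). Of 21 checkpoint and S-phase repair genes 0 passed, and the smallest p belonged to Rad17, which loads the checkpoint clamp (log2 change -0.66, adjusted p = 0.123). An unadjusted p under 0.05 was met by 0 of the 16 and by 6 of the 21, against 22.6% of all tested genes.

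Of 32 genes of G2 and mitosis, tested for comparison, 5 were lower and 0 higher in Nbr1KO, or 15.6%, where 2.25% of all tested genes were lower and 4.67% higher, with a median log2 change of -0.38 and 25 negative values. Their summed level was 15609.6, 15718.6 and 15508.9 in Nbr1KO libraries 1 to 3 and 20181.7, 20922.9 and 21303.8 in WT libraries 1 to 3, or 15612.4 ± 104.9 against 20802.8 ± 570.6 (SD, n = 3 each). The 3 Nbr1KO sums lay below the 3 WT sums, within the first library set as within the second. Genes with the most counts weigh most in such a sum. Here these were Smc4 and Top2a, and Top2a did not pass (means 2435.0 in Nbr1KO and 3426.8 in WT, adjusted p = 0.228). The log2 change was positive for 7 of the 32 genes. The 5 genes were Cenpe, a centromere motor, Ccna2 and Ccnb2, the cyclins A2 and B2, Smc4, a condensin subunit, and Nusap1, a spindle protein. Cenpe had 471.6, 465.0 and 466.3 in Nbr1KO and 840.5, 802.0 and 808.1 in WT libraries (log2 change -0.80, SE 0.11, adjusted p = 0.00802). Smc4 had 1773.3, 2088.5 and 1720.6 in Nbr1KO and 2536.2, 3181.2 and 3341.2 in WT libraries (log2 change -0.69, SE 0.15, adjusted p = 0.0434). Log2 changes were -0.74 for Ccna2, -0.71 for Ccnb2 and -0.52 for Nusap1, with adjusted p of 0.0248, 0.0249 and 0.0493. Nusap1 passed in only 4 of the 17 alternatives and not in edgeR (adjusted p = 0.0568, with 0.00583 to 0.214 over the 17). The difference between the S-phase and mitosis lists was not tested, and the mitosis genes were known from earlier results of these data.

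Most of these 10 calls outside the list were lost when 1 library other than WT library 1 was left out. Calls over all tested genes fell in the same fits. They went from 729 to 200, 338 and 231 without Nbr1KO libraries 1, 2 and 3, and to 328 and 319 without WT libraries 2 and 3. Without Nbr1KO library 1, 0 of the 10 passed (adjusted p from 0.0705 to 0.207), without Nbr1KO library 2, 3 passed (Cenpe, Shmt1 and Supt16, with 0.0392 as the lowest value and 0.132 as the highest), and without Nbr1KO library 3 only Shmt1 did (0.0408 to 0.214). Without WT library 2, Cenpe and Rif1 passed (0.0431 to 0.174), and without WT library 3 only Cenpe (0.0455 to 0.166). All 10 passed without WT library 1 (0.00285 to 0.0187) and with the library set term.

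**Figure D5:**
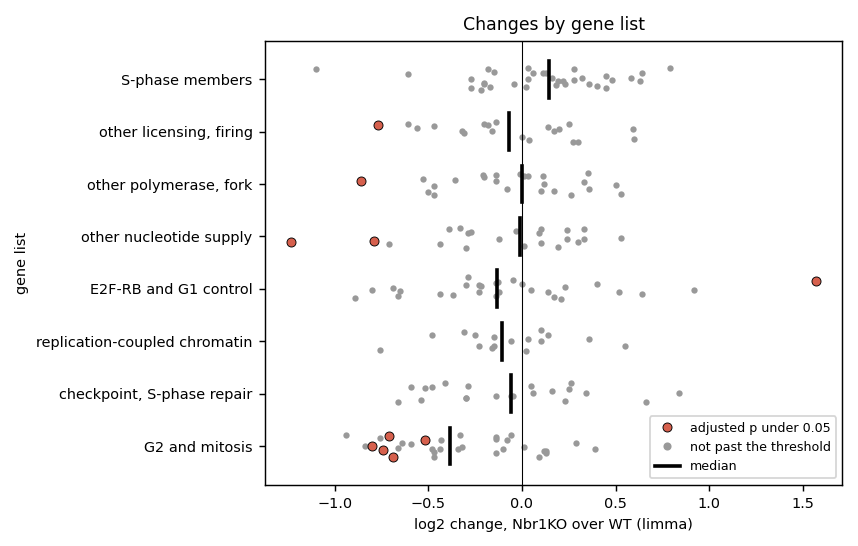
Log2 change of each tested gene, Nbr1KO over WT, in the 34-gene list and in 7 related lists, with black bars at the medians and red points for adjusted p under 0.05. The medians run from -0.38 for G2 and mitosis genes to 0.14 for the S-phase list, which holds no red point.

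Promoter letters and level changes were set side by side with no test. The 9 genes with an E2F form had a median log2 change of 0.02, from -0.27 for Pclaf to 0.63 for Mcm5, and the 19 without one had a median of 0.16. Of 26 mitosis genes with a promoter, 19 (73.1%) held TTTGAA, 20 (76.9%) held CCAAT and 0 held an E2F form. The median log2 change was -0.34 for the 19 and -0.52 for the 7 without TTTGAA. Ccnb2, whose promoter is shown above, was the only called gene among the 19. Cenpe and Nusap1 were among the 7, and the called genes Ccna2 and Smc4 had no matched promoter and were not searched.

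The genes with the most similar pattern over the 6 libraries were found by correlation with the mean standardized level of the 34 genes. The first 3 of 10 were Szrd1 (r = 0.994), Prkag2 (r = 0.992) and Atg5 (r = 0.991), followed by Qsox1, Pcyt1b, Scmh1, Trappc3, Myo7a, Micos10 and Cdc16 (r = 0.973). With 6 libraries and 10540 genes such values are a description. Of these 10 genes 0 passed between the groups (adjusted p from 0.133 to 0.661). Atg5, a gene of autophagosome formation, had 152.1, 139.2 and 149.5 normalized counts in Nbr1KO and 137.4, 136.9 and 128.9 in WT libraries.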

How the data were processed

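Messenger RNA of 6 libraries of cultured hepatic stellate cells was read from transcript 3′ ends with the QuantSeq forward kit (200 ng RNA, single reads of 75 bases), per the labels' protocols, so a value does not scale with transcript length. The table deposited by the authors holds a normalized read count signal, which the values show to be reads times a constant of each library. The submitters' processing notes name DESeq2 and GRCm39. Aligner, annotation, strand use and whether the kit's optional molecular identifiers were counted are not given in the sources used here, so reads of overlapping genes cannot be told apart. Every value was a whole multiple of 1 read within 0.01 (100% of values). The lowest sum over libraries was 9 reads, and duplicates of 1 molecule may be counted.

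The filter kept 10540 genes that reach 10 in 3 or more libraries, and these were tested with limma 3.58.1 in R 4.3.3, two-sided, with a variance trend, on log2(value + 1), group as the only term, Benjamini-Hochberg adjustment at 0.05. Every adjusted p is from this fit unless another is named. Fold values are ratios of group means, while log2 changes come from the fit and understate changes of low genes. The script was tested on simulated data. The 17 alternatives include edgeR 4.0.16 and DESeq2 1.42.0 on recovered reads. The genes and lists were chosen with earlier results of these data known, and lists are described by counts and medians with no list test. Values in every library are given by rule for the 12 genes with the smallest p and the highest by mean in each role group, and were added after the values were seen for the others. The related genes named are those past the threshold, at most 5 a list, or else the one with the smallest p. A planned search of protein sequences was not run.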

Additional observations from a re-analysis of the deposited data

How the results depend on the processing

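Of the 34 genes 0 passed in limma, and 0 in edgeR. DESeq2 and quantile normalization each gave 1, leaving out libraries gave 0 to 7, and the library set term gave 9. The list's median log2 change of 0.14 ran from 0.09 to 0.20 over the 17 alternatives and moved by less than the spread between replicates. The 729 genes called of all tested became 380 with a mean of at least 50, 2791 with the set term, and 200 to 2228 without 1 library. The 10 calls in related lists became 6 without a trend, 44 with the set term and 0 to 35 without 1 library. Replicate numbers do not pair the libraries. Deviations from the group means correlated at 0.45 and 0.70 for numbers 1 and 2 but at -0.62 for number 3, and Nbr1KO library 3 correlated best with WT library 1. With the replicate block 476 genes, 0 of the 34 and 2 related genes passed. The sign of some log2 changes of the group-only limma fit turned as follows, with those of Mcm6 (0.32) and Pcna (0.28) among them. Outside the set term the cause was not tested. With the set term, which takes out the part held from the set difference, the log2 change was 0.55 for Mcm4, -0.23 for Rpa2 and -0.09 for Lig1. In DESeq2 it was -0.0036 for Orc1 and -0.03 for Rpa2, and in edgeR -0.0013 for Rpa2. Without 1 library the values ran from -0.94 to 0.24 for Mcm4, -0.03 to 0.49 for Mcm6, -0.18 to 0.17 for Orc1, -0.05 to 0.08 for Cdc6, -0.07 to 0.14 for Gins1, -0.02 to 0.26 for Prim1, -0.25 to 0.57 for Pcna, -0.24 to 0.34 for Rfc5, -0.15 to 0.37 for Rpa2, -0.02 to 0.50 for Lig1 and -0.18 to 0.25 for Ccne2. Counting error was not separated from the spread between libraries, and the 95% interval reached beyond 2-fold for 13 of the 34 genes. For the other 21 it did not, which does not mean that a 2-fold change would have passed after adjustment over all genes.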
